A study of Homo sapiens with 10 samples.

Results

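The transcripts of 10 enzymes that handle hydrogen peroxide (H2O2) were followed in every RNA-seq library of the study. They were the rows CAT, PRDX1, PRDX2, PRDX3, PRDX4, PRDX5, PRDX6, GPX1, GPX4 and SOD2 of both count tables, which is 10 of 59453 listed genes. The rule that picks the rows uses gene names and no measured value, although the list was drawn up with earlier results of these data known. The cells were HAP1, an established human leukaemia-derived line with a near-haploid genome. Untreated clones were wild type (WT clones 2 and 11), lacked the adenine DNA glycosylase MUTYH (clones 7 and 8), lacked the 8-oxoguanine DNA glycosylase OGG1 (clones 1 and 22), or lacked both (double knockout, DKO, clones 4 and 14), with 1 library per clone. The same 2 WT clones gave 2 more libraries 24 hours after 100 µM H2O2. The knockouts had been made with CRISPR-Cas9. Per the study's supplement both DKO clones were derived from 1 of the 2 OGG1 knockout clones, whose product number matches clone 22. Each genotype thus rests on 2 clones, and the DKO and OGG1 knockout lines are related by descent.

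H2O2 is broken down in separate places by separate enzymes. Catalase (CAT) splits it in peroxisomes. Peroxiredoxins reduce it through a reactive cysteine, which thioredoxin restores for most of them and glutathione for PRDX6. PRDX1, PRDX2 and PRDX6 act mainly in the cytosol, PRDX3 in mitochondria, PRDX5 in mitochondria, peroxisomes and the cytosol, and PRDX4 in the endoplasmic reticulum, where disulphide formation releases H2O2. GPX1 and GPX4 are selenoproteins that use glutathione, GPX1 on H2O2 and GPX4 on lipid peroxides. SOD2 stands apart in the list, since it converts superoxide in mitochondria into H2O2 and so produces H2O2 rather than removing it.

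Total counts ranged from 22225091 to 22674964 per library, and each of the 10 transcripts had between 794 and 9369 counts in each library. All 10 passed the filter on low counts in both fits. Levels are given as CPM, counts scaled to library size with factors of the trimmed mean of M values (TMM). The transcript of the targeted gene was nearly lost in 1 knockout library: OGG1 had 27 counts in OGG1 knockout clone 1, 254 in clone 22, 215 and 223 in the DKO clones, and 275 and 295 in untreated WT. MUTYH had 83 and 101 counts in its knockout, 50 and 106 in the DKO clones, and 89 and 105 in untreated WT. An edited gene can go on being transcribed, so these counts bear on the label of OGG1 knockout clone 1 alone. For all clones the study states that loss of the proteins was checked by targeted mass spectrometry, which was not analysed here. Blood cell markers were low, with a summed level of 7 genes of at most 1.52 CPM. MPO and CD3E had no count, and CD34 was the only 1 of the 7 to pass 1 CPM in any library. The epithelial markers EPCAM, KRT8 and KRT18 passed 1 CPM and CDH1 did not, and these 4 genes summed to 36.3 to 101 CPM. Of 5 fibroblast markers, COL1A1, COL1A2 and PDGFRB passed 1 CPM, while DCN and LUM did not. The 3 endothelial markers summed to at most 0.416 CPM.

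The untreated libraries fell into 2 sets of 4 that crossed the genotypes. The first principal component of the genotype-centred values of 17871 tested genes, with the 10 transcripts left out, carried 49.9% of the variance within genotypes. On one side (set A) it placed clone 2 of WT, clone 8 of the MUTYH knockout, clone 22 of the OGG1 knockout and clone 14 of DKO. On the other side (set B) were clone 11 of WT, clone 7 of the MUTYH knockout, clone 1 of the OGG1 knockout and clone 4 of DKO. The labels name no batch, so these sets are a description of the libraries and not groups of the study, and differences between them are given without a test.

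All 10 transcripts were well expressed in untreated WT cells, and they differed widely in level. Per kilobase of the canonical transcript, PRDX1 was the highest in WT at 340 ± 31.7 CPM per kb (mean ± SD, n = 2 clones), followed by PRDX2 at 227 ± 0.376, PRDX4 at 197 ± 33.1 and GPX1 at 174 ± 8.25. GPX4 at 156 ± 15.5, PRDX3 at 145 ± 23.5, PRDX6 at 144 ± 37.8 and PRDX5 at 126 ± 17.1 CPM per kb came next. Neighbours from PRDX2 to GPX1 and from GPX4 to PRDX5 in this order differed by less than the larger of their SDs, while PRDX1 stood clear of PRDX2 by more than both SDs, as did GPX1 of GPX4. CAT followed at 24.4 ± 3.67. SOD2 was the lowest at 5.83 ± 0.920 CPM per kb, a value that rests on a long annotated transcript of 14167 bases. With the union of all annotated exons as length, PRDX1 stayed first and CAT and SOD2 stayed last, while the order of the other transcripts changed. For SOD2 this length is 18144 bases, from the same annotation. Within a transcript, the highest of the 10 libraries exceeded the lowest by 1.41-fold for PRDX1, PRDX2 and GPX1 and by 1.78-fold for PRDX4, the widest range of the 10.

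**Figure D1:**
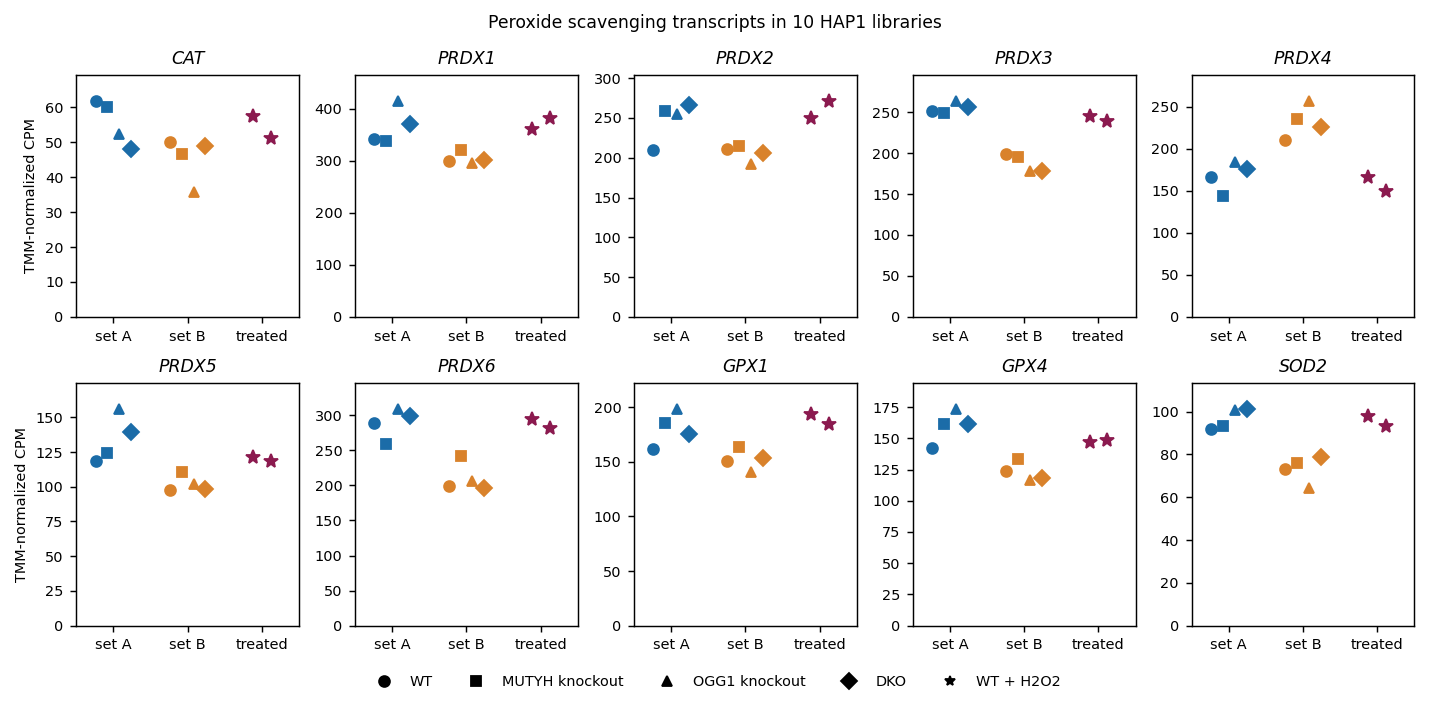
TMM-normalized CPM (vertical axes, from 0) of each transcript in the 10 libraries, 1 point per library, with marker shape for genotype and colour for set A, set B or H2O2-treated WT. PRDX4 is the transcript whose 4 set A points, 144 to 184 CPM, all lie below its 4 set B points, 211 to 258 CPM.

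OGG1 and MUTYH act on oxidized guanine and its mispairs in base excision repair, and the first comparison asked whether scavenger transcripts differed from WT in cells without OGG1, MUTYH or both. None of the 10 was a differentially expressed gene in any knockout, and the largest difference in a knockout was a lower CAT level in OGG1 knockout cells. In bulk RNA, fewer cells of a kind and less RNA per cell cannot be told apart. By the study's criterion, an unadjusted P of at most 0.05 in edgeR's quasi-likelihood F test with a log2 fold change beyond 1, 0 of 10 were called in MUTYH knockout (1.19% of all 17881 tested genes), in OGG1 knockout (1.67%) and in DKO (1.77%). Without the limit on size, 0 of 10 reached an unadjusted P of at most 0.05 in each comparison, against 1.72%, 2.74% and 2.94% of all genes. The Wald test of DESeq2 also gave 0 of 10 at that P in each knockout, against 319, 508 and 472 of all 17881 genes. The Benjamini-Hochberg (BH) adjusted p-values of edgeR over all genes were at least 0.999, and 1, 0 and 0 of the 17881 genes passed 0.05 in MUTYH knockout, OGG1 knockout and DKO.

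Every log2 fold change of a knockout against WT lay between -0.34 and 0.25, and the 95% intervals of all 30 such values lay within a log2 fold change of 1 in either direction, from -0.86 to 0.92. Taken singly, each interval thus stayed within a 2-fold change. The 30 intervals are not a joint bound, rest on 2 clones per genotype and do not show that the levels were equal. The medians of the 10 log2 fold changes were 0.034 in MUTYH knockout, 0.10 in OGG1 knockout and 0.075 in DKO, beside 0.013, 0.015 and 0.00079 for all tested genes. The interaction, which asks whether the change on loss of MUTYH differed between cells with and without OGG1, called 0 of 10 by the study's criterion (2% of all genes), by BH (0.00559%) and at a P of at most 0.05 (2.62%), with log2 values from -0.23 in PRDX5 to 0.21 in CAT and a widest interval from -1.13 to 0.83 in PRDX4.

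CAT lies at chr11:34438934-34472060 on the plus strand (GRCh38, GENCODE v44) and overlaps no other annotated gene. Its level was 62.0 and 50.1 CPM in WT clones 2 and 11, 60.1 and 46.6 CPM in MUTYH knockout clones 8 and 7, 52.5 and 35.9 CPM in OGG1 knockout clones 22 and 1, and 48.0 and 48.9 CPM in DKO clones 14 and 4. The OGG1 knockout values overlapped the WT values, and both DKO values lay just below them. CAT was the only one of the 10 whose DKO libraries did not overlap WT, where 12.6% of all tested genes were lower without overlap and 13.1% higher. Its log2 fold change was -0.34 ± 0.22 (SE) in OGG1 knockout, with an edgeR BH adjusted p of 0.999, and -0.21 ± 0.22 in DKO and -0.075 ± 0.22 in MUTYH knockout. Within set A, CAT differed from WT by -0.045, -0.24 and -0.37 log2 CPM in MUTYH knockout, OGG1 knockout and DKO, and within set B by -0.10, -0.48 and -0.035 log2 CPM. CAT was thus below the WT clone of the same set in all 6 knockout clones, but the 3 knockouts share these WT clones, so the 6 values are not independent. How many of all tested genes were lower in all 6 was not counted. With the set as a block in the fit, the OGG1 knockout value was -0.35 ± 0.14 (95% interval -0.69 to -0.018), which passed an unadjusted P of at most 0.05 in edgeR at a BH adjusted p of 0.680. This 1 call of 10 stands beside 7.18% of all genes in that fit. The sets were drawn from these same libraries, so the block takes out their largest spread by construction. The blocked interval can thus be too narrow and its P too small. In the same blocked fit 0 of 10 passed that threshold in MUTYH knockout (4.46% of all genes), DKO (7.32%) and the interaction (7.02%). Without the block, the CAT value in OGG1 knockout rested on which clone was used, at -0.63 without clone 22 (adjusted p = 0.982) and -0.10 without clone 1.

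PRDX2 and GPX1 were the transcripts that did not overlap WT in MUTYH knockout cells, both on the higher side, as were 11.8% of all tested genes (9.78% were lower, and 0 of the 10). PRDX2 lies at chr19:12796820-12801800 on the minus strand, and an annotated long non-coding RNA on the other strand shares exon sequence with it. It was at 210 CPM in both WT clones, the smallest WT spread of the 10. In the knockouts it was at 258 and 215 CPM in MUTYH clones 8 and 7, 255 and 193 CPM in OGG1 clones 22 and 1, and 266 and 206 CPM in DKO clones 14 and 4. In each knockout the set A clone was thus above WT, while the set B clone was close to WT or below it. The log2 fold change in MUTYH knockout was 0.17 ± 0.20 (adjusted p of edgeR 0.9997). GPX1, at chr3:49357174-49358605 on the minus strand, is overlapped on its own strand by exons of another annotated protein-coding gene, so its counts depend on how shared reads were assigned. It was at 161 and 151 CPM in untreated WT clones 2 and 11, and at 186 and 163 CPM in clones 8 and 7 of the MUTYH knockout. Its log2 fold change there was 0.16 ± 0.19 (adjusted p of edgeR 0.9997). In OGG1 knockout, 0 of the 10 were free of overlap with WT in either direction (13% of all genes were higher without overlap and 12.2% lower, 25.2% in all). Leaving out 1 library turned the sign of 25 of the 30 fold changes between a knockout and WT.

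**Figure D2:**
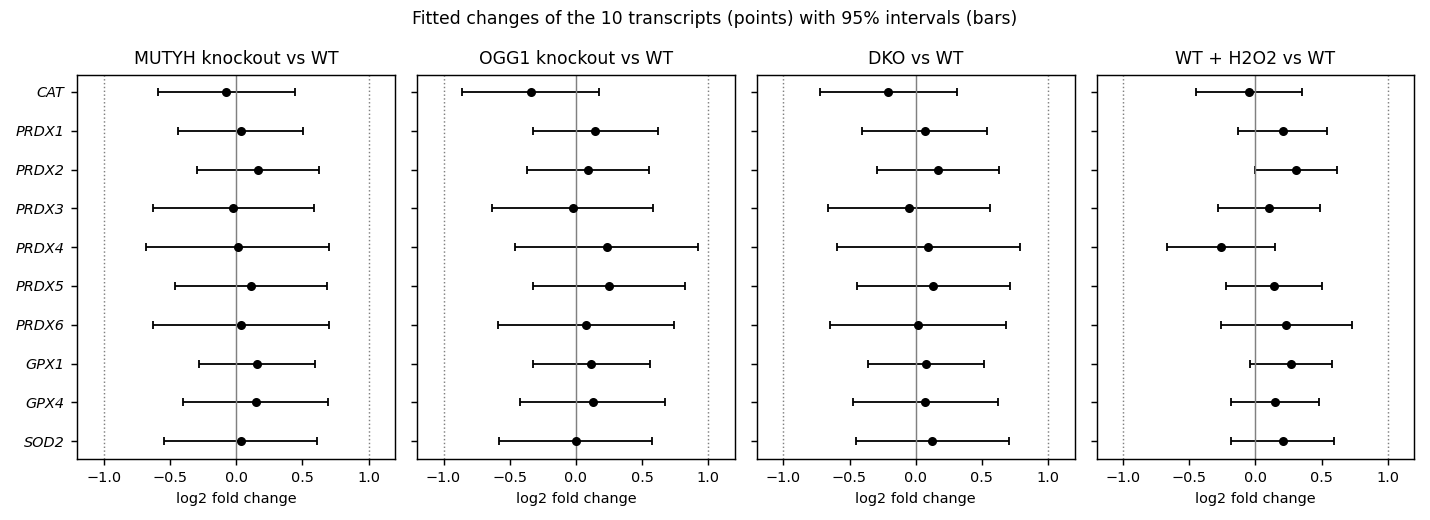
Fitted log2 fold changes against untreated WT (horizontal axes) of the 10 transcripts in the 3 knockouts and in H2O2-treated WT cells, with bars for 95% intervals and dotted lines at a log2 fold change of 1 in either direction. All intervals stay inside the dotted lines, and after H2O2 (right panel) all but CAT and PRDX4 are centred above 0.

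The split between the 2 sets of untreated libraries ran through nearly all 10 transcripts, reaching -0.47 log2 CPM in PRDX4 and 0.46 in PRDX6. The widest fitted difference of a knockout from WT was -0.34. The sets follow the largest spread of these same libraries within genotypes, so the sizes are not compared on equal terms. Of the 10, 9 had a higher mean log2 CPM in set A and PRDX4 had a lower one. The 4 set A libraries lay wholly above the 4 set B libraries for 6 transcripts, PRDX1, PRDX3, PRDX5, PRDX6, GPX4 and SOD2, as they did for 15.4% of all tested genes. In 7 transcripts set A was higher in all 4 genotypes (24.4% of all genes). Set A lay wholly below for PRDX4, as for 13.8% of all genes, and overlapped for CAT, PRDX2 and GPX1. The median of the 10 differences was 0.34 log2 CPM, beside 0.013 for all tested genes. The direction was the same under TMM, median-ratio and total-count scaling, with 9 higher and PRDX4 lower in each. Differences of this size were common among other genes, since 25.7% of all tested genes differed between the sets by more than PRDX4 did, in either direction.

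PRDX4, the peroxiredoxin of the endoplasmic reticulum, lies at chrX:23664262-23686397 on the plus strand and overlaps no other annotated gene. In set A it was at 166 CPM in WT, 144 in MUTYH knockout, 184 in OGG1 knockout and 176 CPM in DKO. In set B it was at 211 CPM in WT, 236 in MUTYH knockout, 258 in OGG1 knockout and 226 CPM in DKO. The highest set A library was thus below the lowest set B library, and set B was higher in each of the 4 genotypes, as for 22.6% of all tested genes. The mean difference, set A minus set B, was -0.47 ± 0.17 log2 CPM (SD over 4 genotypes), 1.39-fold higher in set B.

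The cytosolic peroxiredoxin PRDX6 differed as far in the other direction. It lies at chr1:173477330-173488815 on the plus strand, and an antisense RNA at the locus had at most 1.53% of its count in any library. In set A it was at 289 CPM in WT, 259 in MUTYH knockout, 308 in OGG1 knockout and 299 CPM in DKO, and in set B at 199, 242, 206 and 196 CPM. The sets did not overlap, and they came closest in MUTYH knockout. The mean difference was 0.46 ± 0.24 log2 CPM, 1.37-fold higher in set A.

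The mitochondrial enzymes also stood higher in set A. PRDX3 lies at chr10:119167720-119178812 on the minus strand with no overlapping gene, and was at 249 to 264 CPM in set A and 178 to 199 CPM in set B. Its difference of 0.44 ± 0.12 log2 CPM varied least over the genotypes. SOD2, at chr6:159669069-159762529 on the minus strand, was at 91.8 to 101 CPM in set A and 64.2 to 78.8 CPM in set B, a difference of 0.41 ± 0.17 log2 CPM. The SOD2 locus overlaps exons of ACAT2 and WTAP on the other strand, and without a stated strand setting their reads cannot be told apart there. PRDX5, at chr11:64318121-64321811 on the plus strand, was at 119 to 156 CPM in set A and 98.0 to 110 CPM in set B. The mitochondrially encoded transcripts went the other way, with 3.75% to 5.02% of all counts in set A and 5.14% to 7.46% in set B.

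Of the remaining transcripts, PRDX1, at chr1:45510914-45542732 on the minus strand, was at 338 to 416 CPM in set A and 295 to 321 CPM in set B. Exons of MMACHC on the other strand overlap it. GPX4, which limits lipid peroxidation and lies at chr19:1103982-1106791 on the plus strand, was at 142 to 173 CPM in set A and 117 to 134 CPM in set B. PRDX2 and GPX1 overlapped between the sets, with mean differences of 0.26 and 0.24 log2 CPM. CAT overlapped as well, at 48.0 to 62.0 CPM in set A and 35.9 to 50.1 CPM in set B, and DKO was the genotype in which the sets were alike for it (-0.026 log2 CPM).

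**Figure D3:**
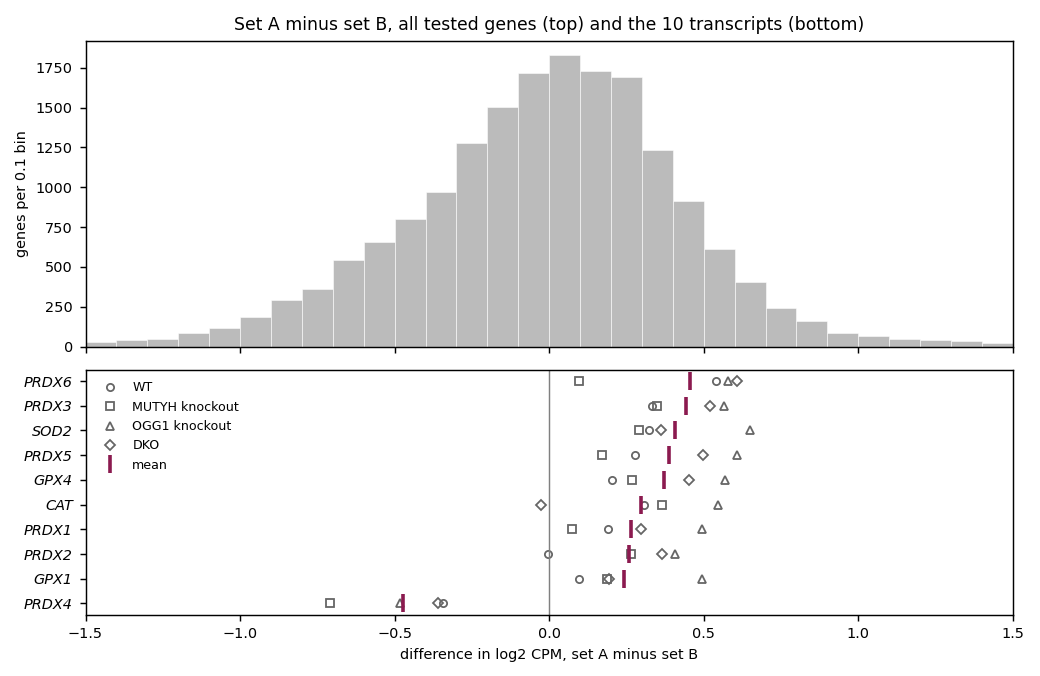
Difference in log2 CPM, set A minus set B (horizontal axis), as a histogram of all tested genes in bins of 0.1 (top) and for each transcript (bottom), with open markers for the 4 genotypes and a bar for their mean. PRDX4 at -0.47 lies left of 0 in all 4 genotypes, and the means of the other 9 lie between 0.24 and 0.46.

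The opposite course of PRDX4 changed the make-up of the peroxiredoxin family. PRDX4 took 12.1%, 10.5%, 11.6% and 11.7% of all counts of PRDX1 to PRDX6 in the set A libraries of WT, MUTYH knockout, OGG1 knockout and DKO. In set B it took 17.3%, 17.9%, 20.9% and 18.7%. Exact (Clopper-Pearson) 95% intervals reached no further than 12.4% in set A and down to 16.9% in set B. These intervals cover counting error only. The ratio of PRDX4 to PRDX6 counts was 0.558 to 0.598 in set A and 0.976 to 1.25 in set B. The summed level of all 10 transcripts was 1834 to 2109 CPM in set A and 1590 to 1739 CPM in set B.

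**Figure D4:**
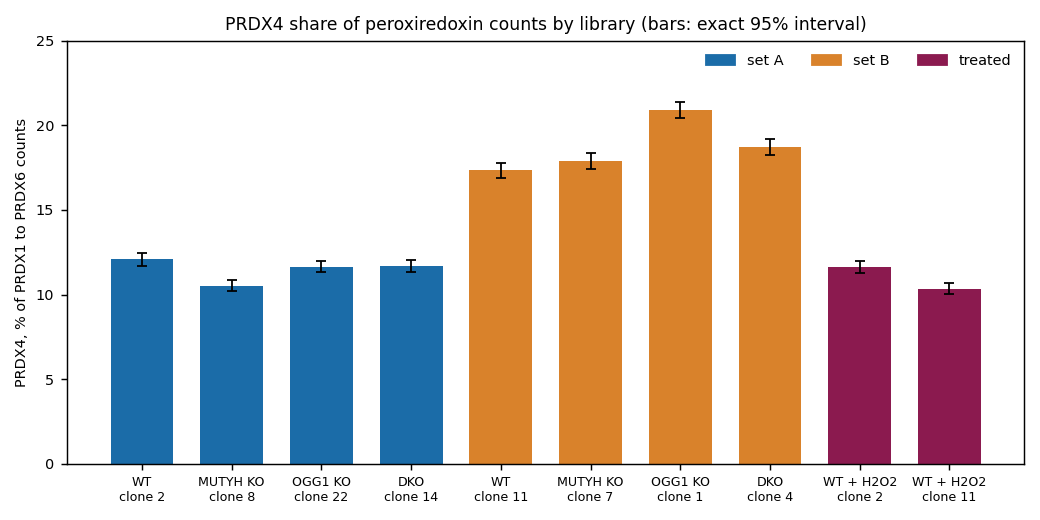
Share of PRDX4 in the counts of PRDX1 to PRDX6 in percent (vertical axis, from 0) for each of the 10 libraries, with exact 95% intervals. The 4 set A bars and both H2O2-treated bars stand between 10.3% and 12.1%, and the 4 set B bars between 17.3% and 20.9%.

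Some other measures of the libraries moved with the sets. Cytosolic ribosomal protein genes (82 genes) took 5.08% to 6.55% of the counts in set A and 3.97% to 4.17% in set B. Short transcripts were higher in set A, with a median difference of 0.15 log2 CPM in the shortest of 5 equal classes of transcript length, to which 6 of the 10 belong, and of -0.040 in the longest class, to which SOD2 belongs. PRDX4 is among the 6 short ones. The sums of the 5 fibroblast markers overlapped, at 19.6 to 31.7 CPM in set A and 29.9 to 49.8 CPM in set B. Those of the 4 epithelial markers overlapped as well, at 36.3 to 101 CPM in set A and 52.6 to 94.8 CPM in set B. The part of these measures in the differences between the sets was not tested.

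The second comparison asked whether the scavenger transcripts of WT cells differed 24 hours after H2O2. None was a differentially expressed gene, and 8 of 10 had a higher mean. The 2 treated libraries lay wholly above the 2 untreated ones for 6 transcripts, PRDX1, PRDX2, PRDX5, GPX1, GPX4 and SOD2, and wholly below for 0 of 10. Among all 16997 tested genes 21.5% lay wholly above and 20% wholly below, 41.4% in all. By the study's criterion edgeR called 0 of 10 (1.75% of all genes), and at an adjusted p of at most 0.05 it called 0 (0%). At an unadjusted P of at most 0.05 edgeR called 0 (7.63%), whereas the Wald test of DESeq2 called 1 (1101 of all 16997 genes). The log2 fold changes ran from -0.26 ± 0.16 (SE) in PRDX4 to 0.31 ± 0.12 in PRDX2, with 95% intervals between -0.67 and 0.73. Their median was 0.18, beside 0.00018 for all genes.

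PRDX2 and GPX1 stood out by being higher to a like extent in both clones. PRDX2 was at 210 CPM in each untreated clone and at 250 and 272 CPM in treated clones 2 and 11, 1.24-fold higher (adjusted p of edgeR 0.638). GPX1 was at 161 and 151 CPM untreated and at 194 and 184 CPM treated, a log2 fold change of 0.27 ± 0.12 (adjusted p of edgeR 0.640). The differences were 0.25 and 0.37 log2 CPM in clones 2 and 11 for PRDX2, and 0.26 and 0.29 for GPX1. The WT clones carry the same numbers in treated and untreated cells, and with clone as a replicate block both passed an unadjusted P of at most 0.05 in edgeR. Their adjusted p-values were then 0.190 for PRDX2 and 0.239 for GPX1. These 2 of 10 stand beside 20.1% of all genes at that threshold in the blocked fit, so the share among the 10 was near the background. The blocked fit called 0 of 10 after adjustment (2.57% of all genes) and 0 by the study's criterion (2.78%).

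For most of the other 8 transcripts, the clones differed in how far treated cells lay from untreated ones. The median size of the difference over the 10 was 0.063 log2 CPM in clone 2 and 0.32 in clone 11, beside 0.21 and 0.29 over all tested genes. In clone 11, 9 transcripts were higher after treatment and PRDX4 was lower, at 149 CPM against 211 CPM. In clone 2, PRDX4 was at 167 CPM treated and 166 CPM untreated. PRDX6 was at 282 CPM treated against 199 CPM untreated in clone 11, and at 295 against 289 CPM in clone 2. PRDX3 was at 239 against 199 CPM in clone 11 and at 246 against 251 CPM in clone 2. CAT, the enzyme of peroxisomes, was at 51.3 against 50.1 CPM in clone 11 and at 57.5 against 62.0 CPM in clone 2. The clones thus differed most for PRDX4 and PRDX6, and this difference between 1 library pair and another has no replicate.

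**Figure D5:**
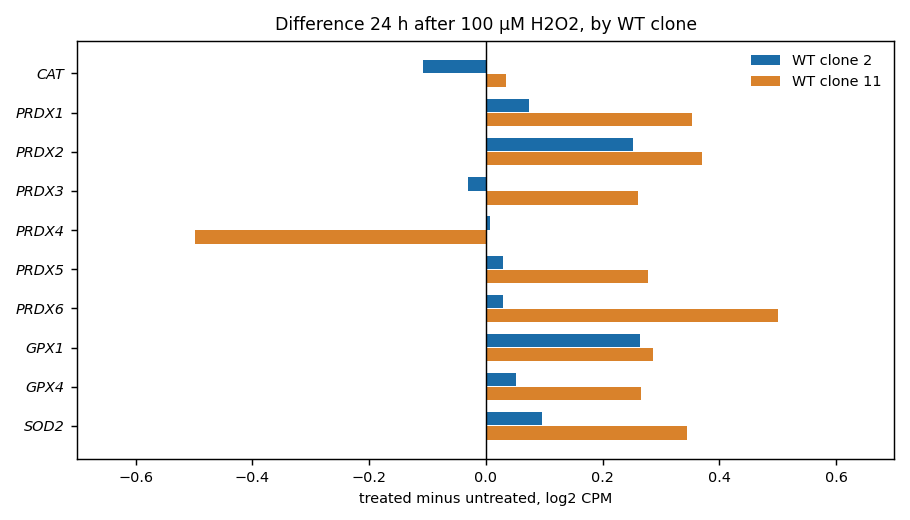
Difference in log2 CPM between treated and untreated cells (horizontal axis) of each transcript in WT clones 2 and 11, 1 library pair per bar, without error bars since each clone has 1 library per condition. PRDX2 and GPX1 have bars of 0.25 to 0.37 in both clones, while the bars of PRDX4 (-0.50) and PRDX6 (0.50) in clone 11 have counterparts of 0.0068 and 0.029 in clone 2.

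After treatment the clones were close to each other and to set A. The median size of the difference between clones over the 10 was 0.29 log2 CPM untreated and 0.074 treated, beside 0.27 and 0.22 over all tested genes. Treated clone 2 lay within the set A range for 9 transcripts and treated clone 11 for 8, and neither lay within the set B range for any of the 10. Over all tested genes, 48.4% and 48.0% lay within the set A range in treated clones 2 and 11, and 28.9% and 33.3% within the set B range. PRDX4 took 11.6% and 10.3% of the peroxiredoxin counts in treated clones 2 and 11, and the ratio of PRDX4 to PRDX6 was 0.566 and 0.530. Untreated clone 11 belongs to set B and untreated clone 2 to set A. On the axis that separates the sets, relative to the untreated WT mean, clone 11 was at -28.3 untreated and -0.821 treated, and clone 2 at 28.3 untreated and 19.3 treated. Ribosomal protein genes took 5.205% and 5.03% of the counts in treated clones 2 and 11. Mitochondrially encoded transcripts took 3.38% and 2.995%, below all untreated libraries. The fibroblast markers summed to 16.2 to 18.8 CPM in treated cells, also below all untreated libraries, and the part of these measures was not tested. Whether the difference in clone 11 goes with the treatment or with the set of its untreated library cannot be told apart.

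The enzymes that serve these scavengers were read from 6 lists of 72 genes for thioredoxin and glutathione recycling, glutathione synthesis and NADPH supply, further dismutases and peroxidases, selenoprotein synthesis, sources of H2O2, and regulators. Of 60 tested among genotypes, edgeR called 0 by the study's criterion in a knockout against WT, and the median log2 fold changes were 0.054 in MUTYH knockout, 0.084 in OGG1 knockout and 0.043 in DKO. In the interaction 1 of the 60 was called, where 2% of all genes were, so the count was near the background. It was SESN3 (log2 value -1.06, adjusted p of edgeR 0.99997), whose product is a stress-inducible sestrin. After H2O2, 2 of 57 rose by the study's criterion (1.75% of all genes were called) and 0 fell. TXNIP, which binds and inhibits thioredoxin, was at 71.0 and 58.3 CPM in treated clones 2 and 11 and at 18.2 to 44.7 CPM in the untreated libraries, a log2 fold change of 1.18 ± 0.30. SESN2, another sestrin, was at 86.3 and 74.5 CPM treated and at 29.8 to 45.9 CPM untreated, a log2 fold change of 1.18 ± 0.16. The adjusted p of both in edgeR was 0.638, and with clone as a replicate block it was 0.00164 for TXNIP and 0.00052 for SESN2. That blocked fit had 1 residual degree of freedom, and 2.57% of all genes passed an adjusted p of 0.05 in it.

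Between the sets, 46 of the 60 partner genes overlapped. Set A lay wholly above set B for 9 of the 60 and wholly below for 5, no larger a share than the 15.4% and 13.8% of all genes, so the lists as a whole did not stand apart. The 9 were TXN, TXN2, GSR, GLRX3, GLRX5, TALDO1, SOD1, SEPHS1 and BACH1. TXN, TXN2, GSR, GLRX3 and GLRX5 belong to the list for thioredoxin and glutathione recycling. In that list 5 of 12 lay wholly above, 0 lay wholly below and 7 overlapped. No other list had more than 1 gene wholly above. The recycling list was singled out after its values were seen. TXN, the cytosolic thioredoxin that restores peroxiredoxins, was at 146 to 186 CPM in set A and 79.5 to 96.5 CPM in set B, and at 154 and 144 CPM in treated clones 2 and 11. SOD1, the cytosolic superoxide dismutase, was at 201 to 248 CPM in set A and 137 to 166 CPM in set B. In treated clones 2 and 11 it was at 206 and 216 CPM. The 5 lower in set A were SLC3A2, GPX7, GPX8, CYBB and CYBA. GPX7 and GPX8 are peroxidases of the endoplasmic reticulum, the compartment of PRDX4. Of the listed sources of H2O2 there, ERO1A and ERO1B overlapped between the sets (-0.068 and 0.22 log2 CPM, set A minus set B). GPX8 was at 71.6 to 76.3 CPM in set A, 90.9 to 114 CPM in set B, and 68.6 and 90.9 CPM in treated clones 2 and 11. GPX7 was at 28.6 to 33.0 CPM in set A, 35.9 to 43.6 CPM in set B, and 33.5 and 38.9 CPM in treated clones 2 and 11. SLC3A2 was at 201 to 247 CPM in set A, 318 to 452 CPM in set B, and 368 and 403 CPM in treated clones 2 and 11. Both treated clones thus lay within the set A range for SOD1 and within the set B range for SLC3A2. Apart from ERO1A and ERO1B, these genes outside the 10 are named because their libraries did not overlap between the sets, a choice made after their values were seen.

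Promoter sequence was compared for 8 of the 10 genes, for which RefSeq (GRCh38.p14) windows of 300 bases around the start were at hand. PRDX1 and PRDX6 had no window and were not searched. The letters TGACNNNGC, a core of the antioxidant response element, were found on either strand in 0 of 14 windows, against 13.3% of all 35116 windows. The palindromic motif of nuclear respiratory factor 1 was found in 0 of 14, against 1.24%. This says only that these letters are not in these windows.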

How the data were processed

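RNA from 10 HAP1 libraries was sequenced on the DNBseq platform. The authors aligned reads to GRCh38 with Hisat2 and deposited 2 tables of raw counts per gene, made with featureCounts against Ensembl. Strand setting and handling of multi-mapped reads are not stated. FastQC 0.11.9, HISAT2 2.2.1, R 4.2.2 and edgeR 3.42.4 are listed in the submitters' processing notes. The untreated WT columns of both tables were identical and used once.

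Tests used edgeR 4.0.16 under R 4.3.3 (TMM, filterByExpr, quasi-likelihood F test with legacy=TRUE, two-sided, BH adjustment over all genes tested). The 8 untreated libraries were fitted together (4 residual degrees of freedom) and the 4 WT libraries separately (2). With a block for set or clone these were 3 and 1. Replicates were clones with 1 library each, so p-values measure the spread between such libraries, in which clone and preparation cannot be told apart. WT clone numbers pair treated with untreated libraries by label: the clone difference correlated between conditions across 16997 genes (r = 0.681, genes not being independent), and clone as a block was an alternative. Log2 CPM used a prior count of 2. Statistics were tested on simulated data. All 10 transcripts were named in every comparison, and listed pathway genes where called. The transcripts and lists were chosen with earlier results of these data known. Alternatives were DESeq2 1.42.0 size factors and Wald test, legacy=FALSE, other filters, other libraries in the fit, blocks for set or clone, and leaving out each library. Positions come from GENCODE v44 on GRCh38, a release other than that used for counting.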

Additional observations from a re-analysis of the deposited data

Results flagged for a closer look

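For 3 of the 10 transcripts the WT clones differed in direction after H2O2, with 1 library pair per clone, so the difference was not tested. PRDX4 was 0.0068 log2 CPM higher after treatment in clone 2 and 0.50 lower in clone 11 (-0.50), a difference between the clones of -0.51. PRDX3 was at -0.030 in clone 2 and 0.26 in clone 11, a difference of 0.29. CAT was at -0.11 in clone 2 and 0.034 in clone 11, a difference of 0.14. Among all tested genes 34.4% had opposite signs in the 2 clones.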

How the results depend on the processing

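No alternative brought any of the 10 transcripts past the study's criterion or an adjusted p of 0.05, whichever library, filter, scaling or tool was used (440 values for the 4 comparisons with untreated WT). Lowest adjusted p-values over the alternatives were 0.997 in MUTYH knockout, 0.680 in OGG1 knockout, 0.797 in DKO and 0.190 after H2O2. Apart from leaving out libraries, 277 of 280 values kept their direction. The exception was PRDX4 in MUTYH knockout, at 0.011 as reported, -0.0012 without a filter, -0.0071 with at least 10 counts in every library and -0.020 with the set as a block. The number of transcripts at an unadjusted P of at most 0.05 was 0 in each comparison as reported. After H2O2 it was 1, PRDX2, with the Wald test of DESeq2 (1101 of 16997 tested genes) and with legacy=FALSE (1320 of 16997). It was also 1, PRDX2, without a filter (1544 of 31723). It was 2 with clone as a replicate block (3419 of 16997), which pairs treated with untreated cells of 1 clone. In OGG1 knockout it was 1, CAT, with the set as a block (1283 of 17881 genes), a block drawn from these same libraries. Without clone 22, the log2 fold change of CAT in OGG1 knockout was -0.63. Without untreated WT clone 2, the values after H2O2 were -0.43 for PRDX4 and 0.52 for PRDX6. The knockouts share no replicate number with WT, so no paired fit exists for them.

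Leaving out 1 library at a time leaves 1 group with 1 library, whose spread is then assumed to be that of the others, and it turned the sign of 28 of 40 log2 fold changes, none of which had passed a threshold. In OGG1 knockout, the range was -0.11 to 0.36 for PRDX1, -0.12 to 0.27 for PRDX2, -0.33 to 0.22 for PRDX3, -0.043 to 0.46 for PRDX4, -0.075 to 0.51 for PRDX5, -0.23 to 0.36 for PRDX6, -0.14 to 0.33 for GPX1, -0.18 to 0.37 for GPX4 and -0.35 to 0.28 for SOD2. In DKO it was -0.096 to 0.20 for PRDX1, -0.031 to 0.33 for PRDX2, -0.34 to 0.18 for PRDX3, -0.11 to 0.28 for PRDX4, -0.14 to 0.35 for PRDX5, -0.32 to 0.31 for PRDX6, -0.031 to 0.16 for GPX1, -0.18 to 0.27 for GPX4 and -0.073 to 0.29 for SOD2. In MUTYH knockout it was -0.26 to 0.086 for CAT, -0.056 to 0.13 for PRDX1, -0.20 to 0.15 for PRDX3, -0.40 to 0.33 for PRDX4, -0.016 to 0.25 for PRDX5, -0.21 to 0.32 for PRDX6 and -0.12 to 0.20 for SOD2. After H2O2 it was -0.19 to 0.11 for CAT, -0.054 to 0.27 for PRDX3 and -0.0080 to 0.52 for PRDX6. The largest value lost its sign from 0.25, PRDX5 in OGG1 knockout. The cause was not tested.

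With at least 794 counts per transcript and library, the spread between 2 clones and not counting error limits these comparisons.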
